A study of Mus musculus with 9 samples.

Results

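Histone mRNA transcription and 3' processing factors were examined in cultured mouse retina with and without 2-deoxy-D-glucose (2-DG), a glucose analog that is taken up by cells and inhibits glycolysis. The 9 factors were chosen by gene symbol from the 55487 genes of the deposited table: Npat and Casp8ap2, Slbp, Lsm10, Lsm11 and Zfp473, Cpsf3 and Sympk, and Eri1. All 9 were found and all 9 passed the filter on low counts. The donors were wild-type C57BL/6J mice aged 28 days after birth, and explants spent 48 h in Neurobasal-A medium with 5 mM glucose, without 2-DG (control, 5 libraries) or with 20 mM 2-DG (4 libraries). Both groups were then held for 1 h in Krebs' Ringer medium before total RNA was extracted. The sample titles and treatment fields name the group, whereas the culture protocol attached to every library, controls included, is the one with 2-DG. The retina was freed of sclera and pigment epithelium before culture, and how many retinas or animals entered 1 library is not given in the sources used here, so p-values measure the spread between these libraries. The comparison asked how inhibition of glycolysis changes gene expression in the explants.

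Most mRNAs end in a poly(A) tail, but mRNAs of the replication-dependent histones, which package newly made DNA in S phase, end in a short stem-loop instead. NPAT and CASP8AP2 (FLASH) gather at the histone genes in the histone locus body, SLBP binds the stem-loop, the U7 small nuclear ribonucleoprotein with LSM10 and LSM11 marks the cleavage site downstream of it, CPSF3 (CPSF73) cuts the RNA in a complex with symplekin, and the exonuclease ERI1 (3'hExo) trims the end and takes part in decay of the mRNA. In a mature retina, whose neurons have left the cell cycle, little of this mRNA is needed, while replacement histones are made from ordinary polyadenylated mRNAs. Some replication-dependent histone genes are known to give polyadenylated mRNAs as well in differentiated cells.

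The RNA element that SLBP and ERI1 bind, the stem-loop, is shown first because its place in the annotated transcripts differs between the histone genes measured here. It was searched for as the 16-letter pattern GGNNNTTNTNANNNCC on the sense strand of GENCODE M21 transcripts, where N is any base. Of 64 replication-dependent histone genes, 24 held it within the last 150 bases of a transcript, 21 held it only further from the end and 19 had no match. Of these 19, 13 are annotated with fewer bases after the stop codon than the pattern is long (11 with 0), so there was no 3' end to search. Among 21887 other protein-coding genes, 0.754% held it within the last 150 bases and 6.83% anywhere. None of the 9 factors and none of the 10 replacement histone genes had it in the last 150 bases (0 of each), and 1 of the 9 factors, Sympk, held it further from the end. Sequences are given in DNA letters on GRCm38 with 5 flanking bases, and capitals mark the 16 letters of the pattern. Hist2h2aa2 represents genes whose annotated transcript ends soon after the element (35 bases), and Hist1h1c, Hist3h2a and Hist4h4 are abundant genes whose annotated transcripts run on for 840, 1643 and 2445 bases beyond it.
Hist2h2aa2, chr3:96239779-96239804, minus strand: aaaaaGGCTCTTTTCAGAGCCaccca
Hist1h1c, chr13:23739507-23739532, plus strand: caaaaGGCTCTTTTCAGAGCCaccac
Hist3h2a, chr11:58955167-58955192, plus strand: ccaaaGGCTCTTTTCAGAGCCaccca
Hist4h4, chr6:136803993-136804018, minus strand: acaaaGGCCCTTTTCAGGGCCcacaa
The first 3 carry the same 16 letters, which were the variant found at the end of 13 of the 24 genes. Hist4h4 carries the variant found in 4 of the 24.

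Total counts per library ranged from 11318087 to 51802230, so that 3 counts correspond to between 0.0556 and 0.255 CPM (read counts scaled to a fixed library total). CPM here are on library sizes scaled by the trimmed mean of M-values (TMM). Across genes, Pearson's r of log2 CPM was 0.877 to 0.967 between control libraries and 0.868 to 0.968 between the groups. Rod markers (5 of 5 detected, summed) were present in every library, as the tissue label implies, at 4384 to 37535 CPM, with the highest value in control 2, which also lay apart from the other libraries on principal component 2 (143 against -45.5 to 18.9). Müller glia markers summed to 1360.5 to 5865 CPM in control and 544 to 2311 CPM in 2-DG libraries, and 3 of 4 were lower at an unadjusted p under 0.05. Across 21049 genes tested with edgeR's quasi-likelihood test, none passed an adjusted p of 0.05 (0 called, 0%), and 1526 (7.25%) had an unadjusted p under 0.05, of which 509 (2.42%) were higher and 1017 (4.83%) lower with 2-DG. DESeq2 called 284 and limma-voom with sample weights 1222 genes.

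None of the 9 factors passed the adjusted threshold in edgeR. At an unadjusted p under 0.05 there were 2 of 9, Npat higher and Zfp473 lower with 2-DG, beside 7.25% of all genes tested. The count was 1 of 9, Zfp473 alone, in 6 of 9 fits that left out a library (control 2, 4 or 5, or 2-DG 1, 2 or 3), with library size as the only scaling and with the replicate block, and it was 3 of 9 without control 3, with Casp8ap2 added. The log2 fold changes of the 9 had a median of -0.01, the same as the median of all genes (-0.01), with 4 above and 5 below 0 where 49.2% of all genes were above and 50.8% below. The groups did not overlap for 1 of 9 factors, Zfp473, beside 2.93% of all genes (1.52% with 2-DG higher and 1.41% with 2-DG lower).

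**Figure D1:**
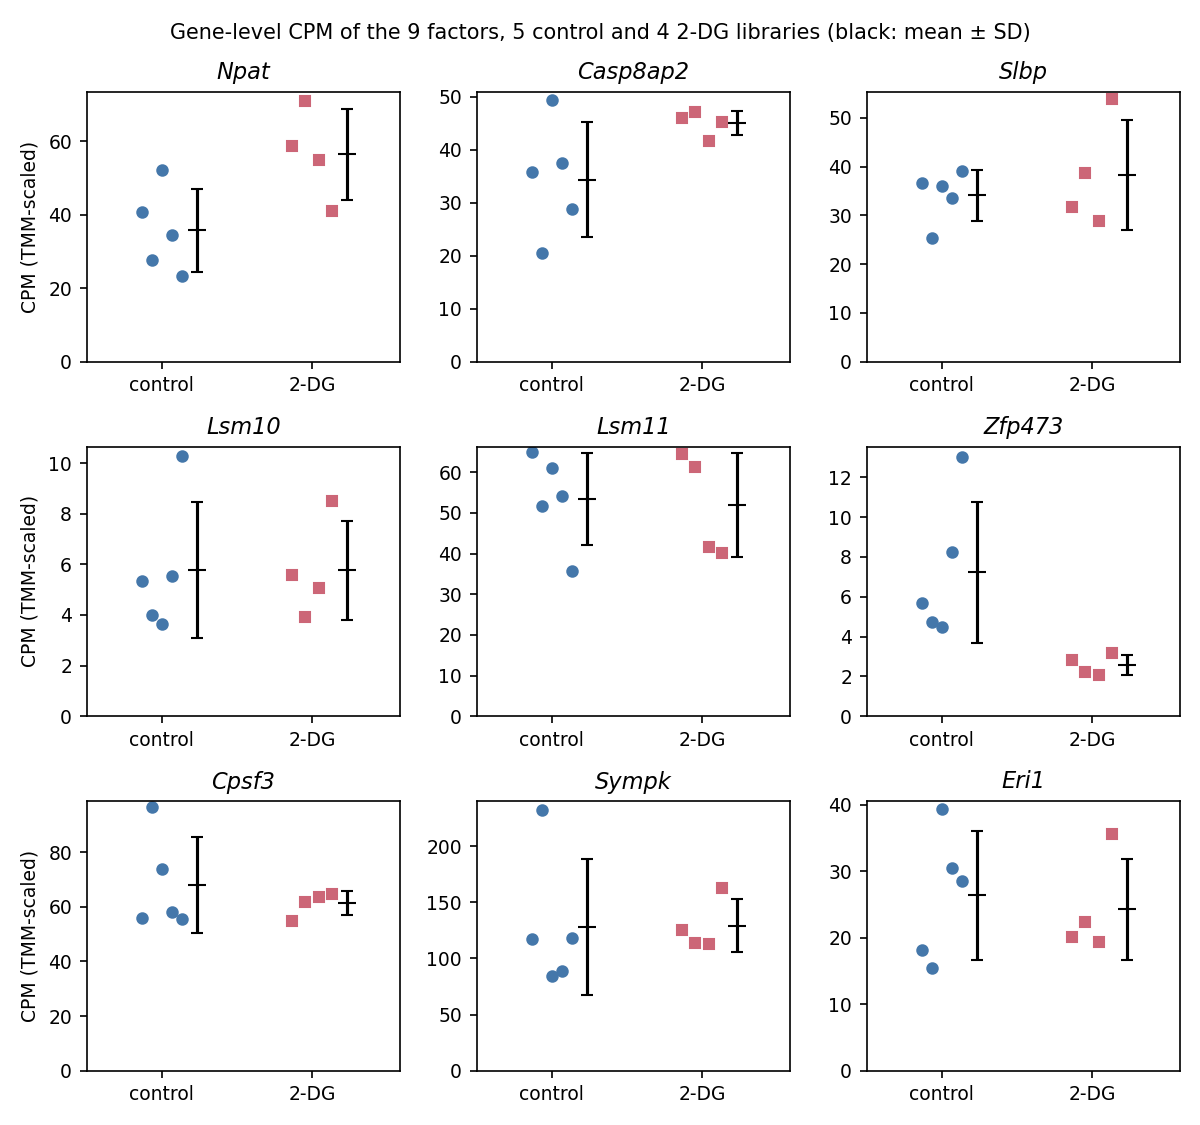
CPM of each of the 9 factors (vertical axis, from 0) in 5 control libraries (blue circles) and 4 2-DG libraries (red squares), placed in the order of their replicate numbers, with the mean ± SD in black. Zfp473 is the only panel in which the groups do not overlap.

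Npat (ENSMUSG00000033054, chr9:53537047-53574342 on GRCm38, plus strand) encodes the cyclin E-CDK2 substrate that activates histone gene transcription in S phase. It measured 40.8, 27.7, 52.2, 34.6 and 23.2 CPM in control libraries 1 to 5 and 58.8, 71.0, 54.8 and 41.1 CPM in 2-DG libraries 1 to 4. All 4 2-DG values lay above the control mean, and only 2-DG 4 fell within the control range. The means were 35.7 ± 11.4 CPM (SD, n = 5) in control and 56.4 ± 12.3 CPM (SD, n = 4) with 2-DG, giving a log2 fold change of 0.66 with a standard error of 0.27 and a 95% interval from 0.07 to 1.25. The edgeR adjusted p was 0.656 (unadjusted p = 0.0327 from the same fit). The adjusted p was 0.358 with DESeq2 (log2 fold change 0.67) and 0.0491 with limma-voom (log2 fold change 0.74), and it ranged from 0.0491 to 0.987 over 19 alternatives. Nearly all of its counts were on 1 transcript, Npat-201 (6062 bases, 18 exons), at 35.9 ± 11.5 CPM (SD, n = 5) in control and 55.6 ± 6.48 CPM (SD, n = 4) in 2-DG libraries. Npat-201 had a log2 fold change of 0.63 (unadjusted p = 0.0469, adjusted p = 1.00 in the edgeR fit over 62900 transcripts, of which 3.45% had an unadjusted p under 0.05).

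Casp8ap2 (ENSMUSG00000028282, chr4:32615451-32653265, plus strand) encodes FLASH, which joins LSM11 to recruit the cleavage complex as well as taking part in histone transcription. Its values were 35.7, 20.4, 49.4, 37.5 and 28.7 CPM in control and 45.9, 47.1, 41.7 and 45.1 CPM in 2-DG libraries. The 2-DG values lay close together inside the control range and all above the control mean. The means of 34.3 ± 10.8 CPM (SD, n = 5) and 45.0 ± 2.33 CPM (SD, n = 4) corresponded to a log2 fold change of 0.39 (interval -0.16 to 0.94, edgeR adjusted p = 0.771). Its main transcript, Casp8ap2-205 (6557 bases), had a log2 fold change of 0.29. Of the other transcription genes, Hinfp, which encodes the factor that binds histone H4 promoters, had means of 50.8 ± 14.4 CPM (SD, n = 5) and 62.2 ± 9.69 CPM (SD, n = 4), with a log2 fold change of 0.29 and an edgeR adjusted p of 0.818.

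Slbp (ENSMUSG00000004642, chr5:33634952-33652574, minus strand) encodes the stem-loop binding protein, which stays with the histone mRNA from processing through translation. It measured 36.6, 25.4, 36.0, 33.5 and 39.1 CPM in control and 31.7, 38.8, 28.8 and 53.9 CPM in 2-DG libraries. The highest value was in 2-DG 4 and the lowest in control 2, and the other 7 libraries of both groups were intermixed. The log2 fold change was 0.17 (standard error 0.24, interval -0.35 to 0.69, edgeR adjusted p = 0.884), and -0.05 without 2-DG 4. Its main transcript, Slbp-201 (1906 bases), measured 19.0 ± 3.13 CPM (SD, n = 5) in control and 24.4 ± 7.57 CPM (SD, n = 4) in 2-DG libraries (log2 fold change 0.36). Exons of Slbp share 474 bases with Gm10459, an annotated gene on the opposite strand.

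Lsm10 (ENSMUSG00000050188, chr4:126096623-126098584, plus strand) and Lsm11 (ENSMUSG00000044847, chr11:45928269-45944935, minus strand) encode the pair of Sm-like proteins that replace SmD1 and SmD2 in the U7 particle. Lsm10 was low, with 48 to 320 counts per library. It measured 5.35, 4.01, 3.66, 5.53 and 10.3 CPM in control and 5.60, 3.92, 5.08 and 8.49 CPM in 2-DG libraries. The groups overlapped fully, control 5 and 2-DG 4 were the highest of their groups, and the log2 fold change was -0.01 (interval -0.87 to 0.86, edgeR adjusted p = 0.998). Lsm11 measured 64.9, 51.6, 61.1, 54.2 and 35.7 CPM in control and 64.4, 61.4, 41.7 and 40.2 CPM in 2-DG libraries. Here control 5 and 2-DG 4 were the lowest of their groups, opposite to Lsm10. The log2 fold change of Lsm11 was -0.04 (interval -0.57 to 0.49, edgeR adjusted p = 0.975), and both signs flipped under other settings. Lsm11 had 0 CPM on its other annotated transcript in every library, so that all of its counts were on Lsm11-202 (6453 bases).

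Zfp473 (ENSMUSG00000048012, chr7:44731480-44751050, minus strand) encodes the mouse counterpart of ZNF473 (ZFP100), a zinc finger protein that binds LSM11 and links the U7 particle to the stem-loop complex. It had the largest difference of the 9 factors and was lower with 2-DG. It measured 5.69, 4.73, 4.50, 8.27 and 13.0 CPM in control and 2.80, 2.24, 2.09 and 3.17 CPM in 2-DG libraries. Every 2-DG library lay below every control library, as for 1.41% of all genes. The means of 7.23 ± 3.53 CPM (SD, n = 5) and 2.58 ± 0.501 CPM (SD, n = 4) gave a log2 fold change of -1.49 with a standard error of 0.40 and an interval from -2.38 to -0.61, or 2.81-fold lower. The edgeR adjusted p was 0.524 (unadjusted p = 0.00362 from the same fit), whereas the adjusted p was 0.0162 with DESeq2 and 0.0198 with limma-voom. The values rest on 33 to 401 counts per library. Cell type markers moved with it: all 4 Müller glia markers had lower means with 2-DG, and 4 skeletal muscle genes summed to 28.7, 4.44, 30.5, 53.2 and 45.1 CPM in control and 5.60, 5.94, 2.06 and 9.41 CPM in 2-DG libraries. In control libraries other than control 2 most of that sum was Myod1 (log2 fold change -3.77, edgeR unadjusted p = 0.00462, adjusted p = 0.524), Ckm had a log2 fold change of 0.85 and Myh4 was under 1 CPM in every library. Zfp473 was highest in control 5 and 2-DG 4, as were endothelial markers, and the part of these cells in its values was not tested. Exons of Zfp473 share 205 bases with Vrk3 on the opposite strand.

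The size of the Zfp473 difference depended on how its transcripts were combined. In the deposited tables a gene is not the plain sum of its transcripts: of 20954 genes with at least 2 transcripts, 1950 equalled the sum within 1% in every library, although the library totals of both tables were equal to within 6.92e-10%. For Zfp473 the ratio of the gene value to the transcript sum ranged from 0.60 to 1.33. As a sum of transcripts it measured 4.28, 4.09, 3.98, 7.72 and 10.9 CPM in control and 3.32, 2.85, 2.53 and 5.29 CPM in 2-DG libraries. On these values the groups overlapped, since 2-DG 4 lay above control 1, 2 and 3, and the log2 fold change was -0.83 (interval -1.76 to 0.10, edgeR unadjusted p = 0.0741, adjusted p = 0.705). The longest transcript, Zfp473-207 (9230 bases), had means of 1.79 ± 1.06 CPM (SD, n = 5) in control and 2.23 ± 1.86 CPM (SD, n = 4) in 2-DG libraries (log2 fold change 0.31). It measured 1.74, 1.04, 0.646, 2.15 and 3.36 CPM in control and 1.24, 1.38, 1.27 and 5.02 CPM in 2-DG libraries. The higher 2-DG mean rests on 2-DG 4, the only 2-DG library above the control mean. Zfp473-204 (3559 bases) was listed at 1.74, 0, 0, 5.08 and 6.68 CPM in control and at 0, 0.086, 0.147 and 0.288 CPM in 2-DG libraries, and did not pass the filter for a test. Zfp473-204 and Zfp473-201 were chosen after their values were seen. Per kilobase of transcript, summed over transcripts, Zfp473 measured 0.966 to 3.17 in control and 0.485 to 0.815 CPM per kb in 2-DG libraries, without overlap. These values follow the deposited gene values closely across libraries, so they are not separate support. The share of all genes without overlap on this measure is not given. Zfp473-201 (3800 bases) measured 0.968 ± 1.17 CPM (SD, n = 5) and 1.05 ± 0.566 CPM (SD, n = 4), so the lower mean counts with 2-DG were on Zfp473-204 and the 4 less abundant transcripts, and the uncertainty of assigning reads to transcripts is not part of the deposited values.

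**Figure D2:**
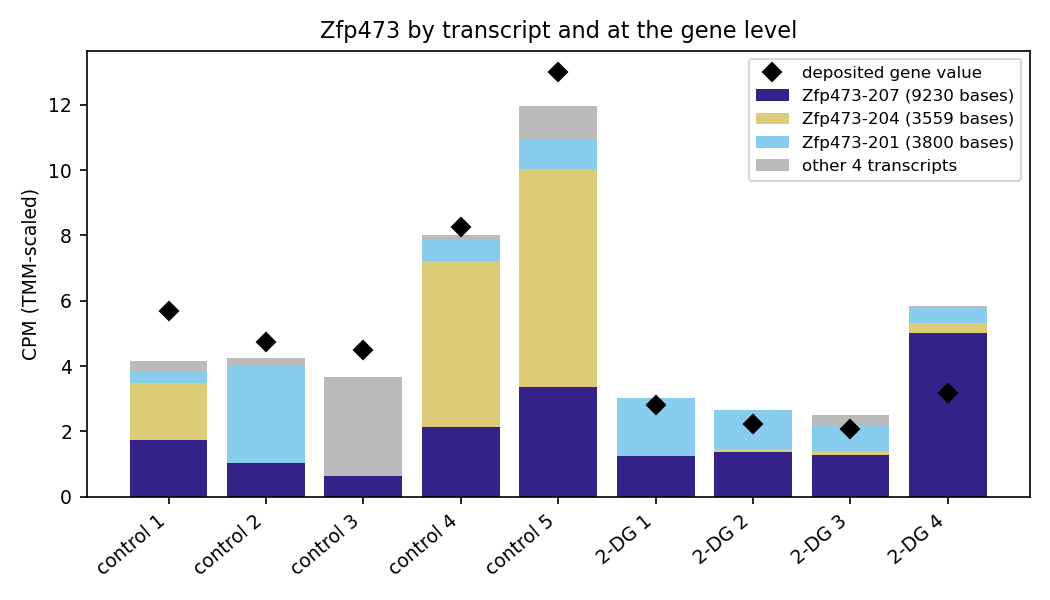
CPM of Zfp473 (vertical axis) in each of the 9 libraries, stacked by annotated transcript, with the deposited gene-level value as a black diamond. Gene and transcript tables were each TMM-scaled on their own. Zfp473-204 (yellow) makes up most of the bar in control 4 and control 5 and is at most 0.288 CPM in 2-DG libraries, and the diamond of 2-DG 4 lies well below its bar.

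Cpsf3 (ENSMUSG00000054309, chr12:21285391-21315056, plus strand) encodes the endonuclease of both histone and poly(A) cleavage. It measured 56.0, 96.4, 73.8, 57.9 and 55.5 CPM in control and 54.8, 61.8, 63.6 and 64.8 CPM in 2-DG libraries. The only value above 75 CPM was that of control 2. The log2 fold change was -0.15 (interval -0.62 to 0.33, edgeR adjusted p = 0.888), 0.01 without control 2 and 0.13 as a sum of transcripts, so its direction was not fixed. Its main transcript, Cpsf3-201 (2499 bases), measured 53.9 ± 4.98 CPM (SD, n = 5) and 56.8 ± 11.4 CPM (SD, n = 4). Exons of Cpsf3 share 196 bases with Itgb1bp1 on the opposite strand.

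Sympk (ENSMUSG00000023118, chr7:19024377-19054618, plus strand) encodes symplekin, the scaffold of the cleavage complex. It measured 117, 232, 84.7, 88.6 and 118 CPM in control and 125, 114, 113 and 163 CPM in 2-DG libraries. Control 2 stood far above the other libraries of its group, and 2-DG 4 was the highest of the 2-DG group. The log2 fold change was 0.00 (standard error 0.31, interval -0.68 to 0.69, edgeR adjusted p = 0.998). As a sum of transcripts control 2 was 162 CPM and the log2 fold change was 0.22 (interval -0.24 to 0.68). The protein-coding transcript Sympk-201 (4116 bases) measured 53.6 ± 14.5 CPM (SD, n = 5) in control and 73.6 ± 20.0 CPM (SD, n = 4) in 2-DG libraries (log2 fold change 0.46, edgeR unadjusted p = 0.131). Cpsf2 (CPSF100) and Cstf2 (CstF64), the other core subunits of the histone cleavage complex, had log2 fold changes of 0.34 (58.1 ± 12.3 CPM, SD, n = 5, against 73.5 ± 5.42 CPM, SD, n = 4) and 0.26 (72.4 ± 15.1 against 86.5 ± 22.0 CPM). Their edgeR adjusted p-values were 0.767 and 0.834.

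Eri1 (ENSMUSG00000031527, chr8:35465253-35496196, minus strand) encodes the exonuclease that binds the stem-loop together with SLBP. It measured 18.1, 15.5, 39.4, 30.5 and 28.6 CPM in control and 20.1, 22.4, 19.3 and 35.6 CPM in 2-DG libraries. Values split into low and high libraries within both groups and overlapped fully. The log2 fold change was -0.12 (interval -0.82 to 0.59, edgeR adjusted p = 0.944), and Eri1-201 (5079 bases) carried nearly all counts, with a log2 fold change of -0.02.

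**Figure D3:**
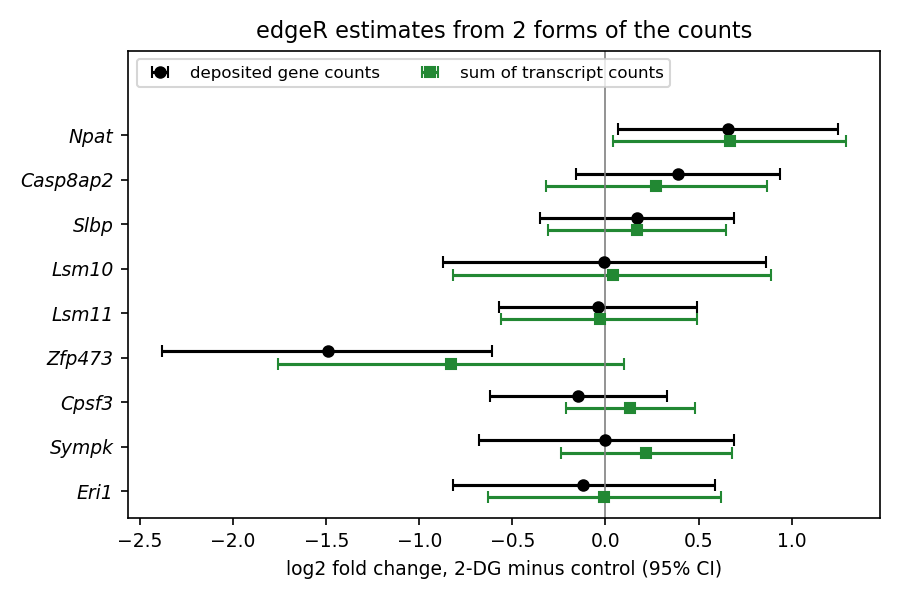
Log2 fold change of 2-DG minus control with its 95% confidence interval (horizontal axis) for each of the 9 factors from edgeR, on the deposited gene counts (black circles) and on gene counts formed as the sum of transcripts (green squares). The interval of Zfp473 excludes 0 only on the deposited gene counts, that of Npat excludes 0 on both, and those of the other 7 factors include 0.

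Per kilobase of transcript, the factors ranged over a wide span of levels. Sympk had a mean over all libraries of 36.4, Cpsf3 of 31.9 and Slbp of 22.6 CPM per kb. Lsm11 (8.17), Npat (7.92), Lsm10 (6.85), Casp8ap2 (6.41) and Eri1 (5.26 CPM per kb) formed a middle group, in which neighbours differed by less than their SD between libraries, and Zfp473 was the lowest at 1.20 CPM per kb. Npat measured 6.38 ± 1.78 CPM per kb (SD, n = 5) in control and 9.84 ± 1.44 CPM per kb (SD, n = 4) in 2-DG libraries, which placed it below Lsm11 in control (8.39 ± 1.42) and above it with 2-DG (7.89 ± 1.37 CPM per kb). Levels of Sympk, Cpsf3 and Slbp include transcripts annotated as retained introns or targets of nonsense-mediated decay.

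A further 40 genes of histone mRNA transcription, processing, translation and decay were all found and tested. None had an unadjusted p under 0.05 in edgeR (0 of 40, beside 7.25% of all genes), 30 had a log2 fold change above 0 and 10 below, and the median was 0.17, beside 49.2% of all genes above 0 and a median of -0.01. Their range was from -1.04 (Ccna2, which encodes the cyclin that marks SLBP for degradation at the end of S phase) to 0.72 (Cdk2, which encodes the NPAT kinase), both named here for lying at the ends of the range. The smallest adjusted p among them was 0.739. With limma-voom, 9 of the 40 had an unadjusted p under 0.05, beside 26.0% of all genes (5474 of 21049) with that tool.

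The replication-dependent histone mRNAs themselves were summed over 64 genes, of which 61 had a count in at least 1 library. The sums were 198, 583, 198, 302 and 320.3 CPM in control and 105, 99.1, 106 and 368 CPM in 2-DG libraries. All 2-DG libraries but 2-DG 4 lay below every control library, whereas 2-DG 4 lay above 4 of the 5 controls. The means were 320.2 ± 157 CPM (SD, n = 5) and 169.6 ± 132 CPM (SD, n = 4), a difference of -1.04 on the log2(sum + 1) scale (exact two-sided permutation p = 0.0952, adjusted over 3 sums 0.286, smallest p the design allows 0.00794). In 2-DG 4, Hist4h4 alone measured 145 CPM, against 7.28 to 16 CPM in the other 2-DG libraries, and it is named for that value. Without Hist4h4 the sums were 189.6 to 539 CPM in control and 90.1 to 223 CPM in 2-DG libraries (log2 difference -1.23, exact permutation p = 0.0317, adjusted 0.0952). In whole-tissue RNA, fewer cells that make a transcript and less of it per cell cannot be told apart.

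Of the 33 replication-dependent histone genes tested, 31 were below 0 and 14 had an unadjusted p under 0.05, all lower, beside 4.83% of all genes, and 0 passed the adjusted threshold in edgeR. Müller glia markers also had lower means with 2-DG, in 4 of 4 genes with a median log2 fold change of -1.18 and 3 of 4 at an unadjusted p under 0.05. Their summed mean was 3116 CPM without and 1314 CPM with 2-DG, and their part in the histone values was not tested. The 3 genes with the highest mean were Hist1h2bc at 55.2 ± 27.2 CPM (SD, n = 5) in control and 33.3 ± 33.0 CPM (SD, n = 4) in 2-DG libraries, Hist1h1c at 61.9 ± 43.6 and 18.6 ± 12.2 CPM, and Hist3h2a at 43.4 ± 19.1 and 25.6 ± 2.08 CPM. The log2 fold changes were -0.73 for Hist1h2bc, -1.74 for the linker histone Hist1h1c and -0.76 for Hist3h2a (edgeR adjusted p = 0.813, 0.526 and 0.637). Near-identical histone genes can share reads, so values of single genes are uncertain.

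Most of these counts lay on histone genes whose annotated transcripts continue past the stem-loop. The 24 genes with the element within the last 150 bases summed to 6.27, 7.02, 5.73, 15.9 and 26.8 CPM in control and 7.04, 5.20, 1.67 and 13.2 CPM in 2-DG libraries, which was 1.20 to 8.35% of the histone sum of a library. The 21 genes with the element only further from the end made up 60.2 to 74.3%, with means of 220.5 ± 109.7 CPM (SD, n = 5) in control and 118 ± 90.2 CPM (SD, n = 4) in 2-DG libraries. Of the former genes 2 of 9 tested, of the latter 10 of 18 tested and of those with no match 2 of 6 tested were lower at an unadjusted p under 0.05, beside 4.83% of all genes, and the difference between these classes was not tested. Counts are per gene and were not divided at the element, so they do not show which part of a transcript was sequenced.

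**Figure D4:**
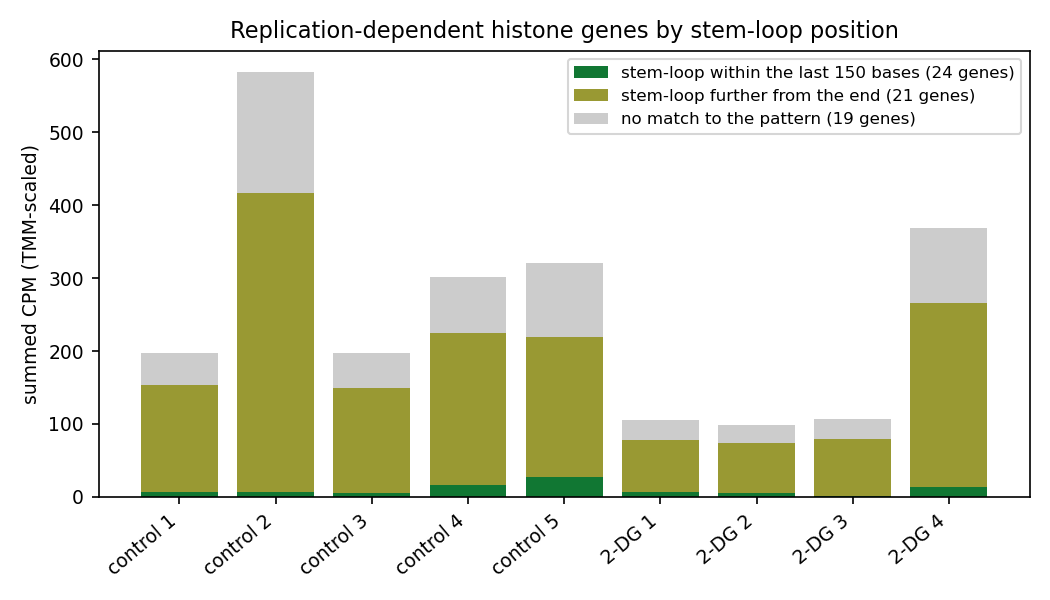
Summed CPM of replication-dependent histone genes (vertical axis) in each of the 9 libraries, stacked by whether the stem-loop pattern lies within the last 150 bases of an annotated transcript (dark green), only further from the end (olive) or has no match (grey). The dark green share is small in every library, and control 2 and 2-DG 4 have the highest bars of their groups.

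Set beside the histone sum library by library, Npat ran opposite to it. Over 9 libraries Pearson's r of log2 CPM of Npat with log2 of the histone sum was -0.856 (exact permutation p = 0.00419, adjusted over 9 factors 0.0377), and Spearman's rho was -0.833 (exact permutation p = 0.00827, adjusted 0.0744). Casp8ap2 had r = -0.712 (exact permutation p = 0.0252, adjusted 0.113) and rho = -0.60. Slbp, whose product binds these mRNAs, had r = 0.0619 over all 9 libraries (exact permutation p = 0.882), and Zfp473 had r = 0.613 (exact permutation p = 0.0801, adjusted 0.24). For the remaining 5 factors r ranged from -0.386 (Lsm11) to 0.521 (Sympk), with adjusted exact permutation p-values of at least 0.283. All these permutations exchanged libraries across the treatment groups. Mean Npat and the mean histone sum differ between the groups, so the p-values for Npat cannot separate a relation from the group difference. The adjustment covers only these 9 factors, which were chosen with earlier results of these data known. The share of all genes with an r as large as that of Npat is not given.

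Without control 2 and 2-DG 4, the libraries whose histone sum lies farthest from the median in CPM, r was -0.902 for Npat, -0.704 for Casp8ap2 and 0.971 for Zfp473, and it turned to -0.151 for Cpsf3 and -0.438 for Sympk. It moved to 0.415 for Slbp, 0.541 for Lsm10 and 0.587 for Eri1, and was -0.344 for Lsm11. Among those 7 libraries every control sum exceeds every 2-DG sum, so these values span separate groups. Each group has fewer than 6 libraries, too few for a value of its own. On the log2 scale the farthest libraries are control 2 and 2-DG 2, and without these, where the groups overlap, r was -0.767 for Npat, -0.396 for Casp8ap2, 0.774 for Slbp, 0.667 for Zfp473, 0.68 for Eri1, 0.56 for Lsm10, -0.408 for Lsm11, 0.0421 for Cpsf3 and 0.123 for Sympk. The values of Casp8ap2, Slbp, Zfp473, Cpsf3 and Sympk thus depend on which 2 libraries are left out. With both measures centred on their group means, r was -0.759 for Npat, 0.745 for Sympk, -0.559 for Casp8ap2 and -0.547 for Lsm11. It was 0.242 for Zfp473 and 0.121 to 0.478 for Slbp, Lsm10, Cpsf3 and Eri1. Centring, like the log2 scale, was chosen after the data were seen, and these values are given as descriptions.

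**Figure D5:**
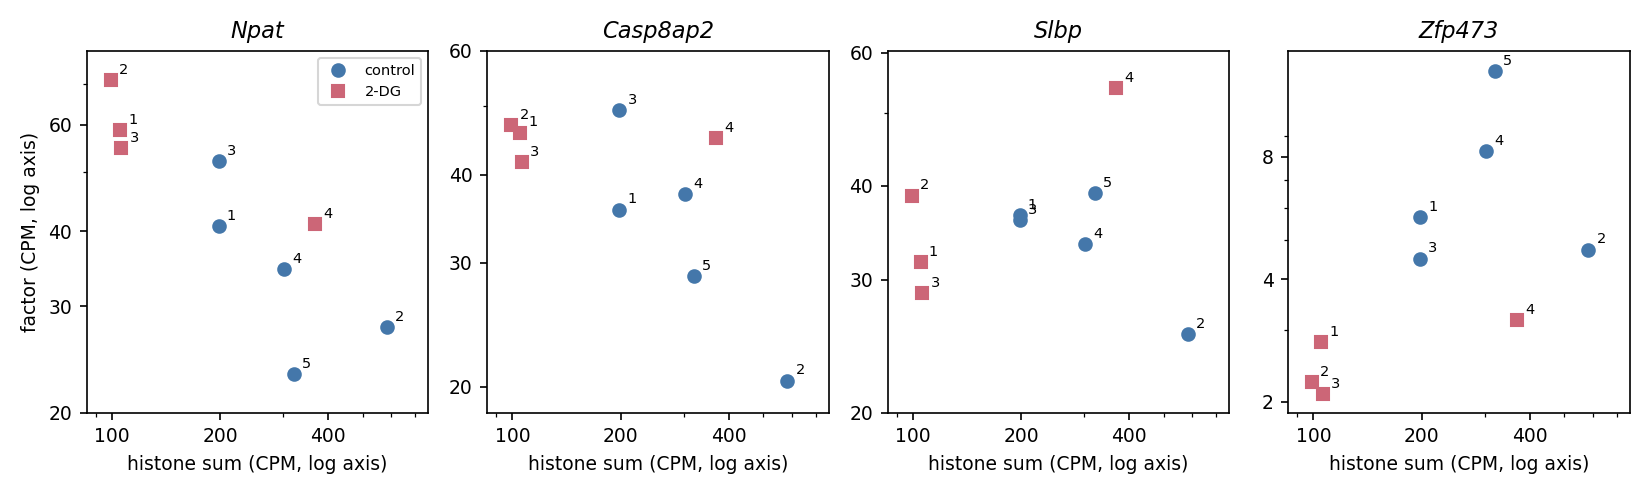
CPM of Npat, Casp8ap2, Slbp and Zfp473 (vertical axes, log scale) against the summed CPM of replication-dependent histone genes (horizontal axes, log scale) in 5 control (blue circles) and 4 2-DG libraries (red squares), numbered by replicate. Over all 9 libraries Npat is highest where the histone sum is lowest (2-DG 1, 2 and 3), 2-DG 4 is the only 2-DG library with a high sum, and Slbp is highest in 2-DG 4 and lowest in control 2.

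Several cell type marker lists moved with the order of Npat values or of the histone sum. Bipolar markers, summed over 4 genes, were 1678, 341, 1693, 856 and 135 CPM in control and 2692, 2358, 1398 and 252 CPM in 2-DG libraries. Within each group Npat was highest where these were high and lowest in control 5 and 2-DG 4, where they were lowest. Endothelial markers, also 4 genes, were 243, 408, 382, 930 and 1759 CPM in control and 449.5, 347, 834 and 2381 CPM in 2-DG libraries, with the highest values in the same pair of libraries. Müller glia markers, again 4 genes, were 1360.5, 3074, 1598, 3679.8 and 5865 CPM in control and 544, 768, 2311 and 1635 CPM in 2-DG libraries. They had the same order as the endothelial list in control libraries and were lowest in 2-DG 1 and 2, the libraries with the highest Npat. Rod markers, 5 genes, were 4384, 37535, 6909, 7296 and 12834 CPM in control and 7131, 8621, 6597 and 13711 CPM in 2-DG libraries. In control libraries they rank as the histone sum does, apart from control 1 and 3 whose sums are alike, and both are highest in 2-DG 4 within the 2-DG group. Cone (597 CPM against 29.4 to 72.9 in the other 2-DG libraries), pigment epithelium (81.4 against 1.36 to 19.5), amacrine (584 against 136 to 298) and microglia markers (45.2 against 6.28 to 11.7 CPM) were highest in 2-DG 3. The highest control values were 481 CPM for cone (control 2), 549.6 for amacrine and 37.9 for microglia (both control 1). For pigment epithelium the highest control value was 9.05 CPM (control 5). All markers of the bipolar, endothelial, Müller and rod lists were above 1 CPM in at least 1 library, and the part of cell composition in the values of the 9 factors and the histone sum was not tested.

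Genes that mark S phase or that give histones outside it were compared in the same libraries. The 15 S-phase genes summed to 318 ± 100.3 CPM (SD, n = 5) in control and 367 ± 155 CPM (SD, n = 4) in 2-DG libraries (exact permutation p = 0.611). Their log2 fold changes ranged from -2.17 to 0.7, with 11 above and 4 below 0. Of these genes 1, Mki67, was lower at an unadjusted p under 0.05 in edgeR, beside 4.83% of all genes. Pcna, the sliding clamp of DNA polymerase, had a log2 fold change of 0.20 and Mcm2, a subunit of the replicative helicase, of 0.46 (edgeR adjusted p = 0.894 and 0.801). The 10 replacement histone genes summed to 1749.9 ± 218 CPM (SD, n = 5) in control and 1551 ± 286 CPM (SD, n = 4) in 2-DG libraries (log2 difference -0.18, exact permutation p = 0.222, adjusted 0.333). H3f3b and H3f3a, which encode histone H3.3, had log2 fold changes of -0.25 and -0.05, and 1 of the 10 genes, the linker histone H1f0, was lower at an unadjusted p under 0.05 (log2 fold change -0.58), again beside 4.83% of all genes.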

How the data were processed

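Total RNA libraries (stranded kit with 4 ng of RNA, 13 PCR cycles, read pairs of 101 bases) were examined in 5 control and 4 2-DG samples. Samples were grouped by title, with 0 columns unmapped. The labels name no separate batches, so a batch could not be examined. Estimated counts of genes and of transcripts were deposited by the authors; kallisto and GRCm38 are named in the submitters' processing notes, and how gene values were formed from transcripts is not given in the sources used here. A table of scaled CPM deposited by the authors, treated as a score because its columns sum to more than CPM would (Lsm10 is not in it), served for alternatives only. They also deposited a comparison table of fold changes and p-values, which was not used. Estimated counts were rounded (at most 0.00377% of a total), filtered with filterByExpr, TMM-scaled and tested with edgeR 4.0.16 (glmQLFit legacy=TRUE, robust=FALSE; R 4.3.3) with Benjamini-Hochberg adjustment over 21049 genes or 62900 transcripts; the standard error is the absolute log2 fold change over the square root of F. The scripts were tested on simulated data. Sums were compared on log2(sum + 1) and relations used log2 CPM with a prior count of 2, with exact permutation tests. DESeq2 1.42.0 and limma 3.58.1 were alternatives. Annotation came from GENCODE M21 (55227 of 55487 gene IDs) and symbols from a gene name table (99.4%). Named genes were all 9 factors, Hinfp, Cpsf2 and Cstf2, the 3 replication-dependent histone genes, 2 replacement histones and 2 S-phase genes with the highest means, and the main transcript of each factor. The members and lists were chosen with earlier results of these data known. The reads carry no molecular identifiers that were used here, so depth limits cover counting error only.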

Additional observations from a re-analysis of the deposited data

Results flagged for a closer look

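Of 24 sets of values of 1 group (9 factors and 3 sums in 2 groups) checked for a library far from the others of its group, 3 had one, where about 1 in 20 is flagged by chance (Dixon's criterion at 95%). Lsm10 in control 5 measured 10.3 CPM against 3.66 to 5.53 CPM in the other control libraries, and without it the log2 fold change was 0.30 in place of -0.01. Sympk in control 2 measured 232 CPM against 84.7 to 118 CPM in the other control libraries, and 162 CPM as a sum of transcripts. The summed replication-dependent histone CPM of 2-DG 4 was 368 against 99.1 to 106 CPM in the other 2-DG libraries, and without Hist4h4 it was 223 CPM.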

How the results depend on the processing

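The number of genes past the adjusted threshold was 0 in edgeR and in each other edgeR setting with all libraries, 284 with DESeq2, 1222 with limma-voom and 0 to 16 when each library was left out in turn (16 without control 2, 2 without 2-DG 4); no transcript passed in any fit (0). Factors with an unadjusted p under 0.05 were 2, but 1 with library size only, with the replicate block or with transcript sums, and 1 to 3 when each library was left out (3 without control 3, with Casp8ap2 added), where Npat lost it without control 2, 4 or 5 or 2-DG 1, 2 or 3 (unadjusted p up to 0.105 in edgeR). Pathway genes were 0, but 9 of 40 with limma-voom, beside 26.0% of all genes with that tool, 1 with the replicate block and 0 to 1 with a library left out (1 without control 2 or 5). Transcript sums, the histone sum without Hist4h4, group-centred values and the farthest libraries on the log2 scale were chosen after seeing the data. Signs changed for Slbp (-0.05 without 2-DG 4), Lsm10 (0.01 without a filter, 0.28 with the block, 0.04 as transcript sum, -0.26 to 0.30 with a library left out), Lsm11 (0.11 with limma-voom, -0.17 to 0.06), Cpsf3 (0.13 as transcript sum, -0.24 to 0.01), Sympk (-0.05 with library size only, -0.10 with upper quartile scaling, -0.04 with a CPM filter, -0.15 to 0.33) and Eri1 (-0.36 to 0.07). The summed S-phase difference ranged from -0.08 (without 2-DG 4) to 0.37 with a library left out. The relation to the histone sum turned for Slbp without Hist4h4 (r = -0.095) and for Cpsf3 (-0.151) and Sympk (-0.438) without the 2 farthest libraries; for each change, the cause was not tested. Npat kept its direction in 19 of 19 alternatives (0.53 to 0.83), as did Casp8ap2 (0.25 to 0.55) and Zfp473 (-1.62 to -0.83). The summed histone difference without 2-DG 4 was -1.50. Same-numbered libraries deviated together with r of 0.451, -0.155, 0.102 and 0.205, which is not over 0.1 for every number, and nothing in the labels ties a number to a shared animal or day, so the samples were treated as sharing only a number; 2 controls (1 and 4) correlated best with their own number. With the replicate block the log2 fold change of Npat was 0.55 (edgeR unadjusted p = 0.0823) and of Zfp473 -1.15.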
